A study of Mus musculus with 16 samples.

Results

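The regions described here are 552 stretches of chromatin inside mouse genes where H3K27ac was called in every library of the mark. They were chosen from the peak lists of 4 H3K27ac libraries of mouse embryonic stem cells (mESCs). Overlapping peaks were joined, which gave 36453 regions, and 2913 of these held a peak from every list. A region was kept when its mean called width was under 3000 bp, when it overlapped the span of a protein-coding gene, and when it stayed more than 1 kb away from both ends of every such gene. The other regions called in all 4 lists include 1100 regions under 3000 bp at gene ends, 563 under 3000 bp between genes and 236 broader regions inside genes. The H3K27ac calls and their widths chose the regions, so widths are given as a description, with no test.

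The series asked how histone marks change when METTL14 is lost. METTL14 forms a complex with METTL3 that writes N6-methyladenosine on RNA. Control cells are labelled Mettl14 Control mESCs and knockout cells Mettl14 CKO mESCs, and both are of the C57BL/6 strain. The labels do not say which Cre, which allele or how many clones the CKO cells come from, or whether replicates are separate cultures. All cells grew in medium with 15% FBS, LIF, 3 μM CHIR99021 (a GSK3 inhibitor) and 1 μM PD0325901 (a MEK inhibitor). H3K27ac, H3K4me3 and H3K27me3 were each profiled by chromatin immunoprecipitation and sequencing in 2 control and 2 knockout libraries, which gave 12 peak lists. A Mettl3 knockout named in the series design was not analysed here, nor were the 4 inputs.

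H3K27ac is acetylation of histone H3 at lysine 27, written mainly by the acetyltransferases p300 and CBP. It sits on active enhancers and active promoters and is mutually exclusive with H3K27me3, the mark of Polycomb repressive complex PRC2, on the same lysine. H3K4me3 marks promoters, above all those rich in CpG dinucleotides, and is low at enhancers. A gene body can hold enhancers of its own or of a neighbouring gene, and also alternative promoters, from which shorter transcripts start. In mESCs many enhancers of the naive state are bound by OCT4, SOX2, NANOG and ESRRB.

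Annotated promoters lay under some of the 552 regions. RefSeq promoter windows, 250 bases before to 50 bases after an annotated start, were at hand for 530 of the regions, and 89 of these (16.8%) touched such a window. The share was 77.8% at gene ends and 7.47% between genes. Of the 89 regions, 80 lay on a promoter of the gene that holds them and 9 on a promoter of another gene, in each case a predicted gene or clone. The sequences printed here are promoters of the first kind, since in each H3K4me3 list most regions with a call lay on such promoters. They are the 3 regions with the most called H3K27ac bases in each of 3 classes: H3K4me3 in all 4 of its lists, in the knockout lists alone, and in no list. The class is that of the whole region, so an H3K4me3 peak need not cover the printed promoter. On regions with H3K4me3 in all 4 lists lay 21 promoter windows. Control peaks touched 38.1% and 42.9% of these windows, and knockout peaks 95.2% in each list. Each is the 250 bases before the annotated start on the gene's strand, from RefSeq, build GRCm38.p6 (mm10), with CpG dinucleotides in capitals.

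With H3K4me3 in all 4 lists:
Gtf2i, chr5:134314761-134315010, minus strand: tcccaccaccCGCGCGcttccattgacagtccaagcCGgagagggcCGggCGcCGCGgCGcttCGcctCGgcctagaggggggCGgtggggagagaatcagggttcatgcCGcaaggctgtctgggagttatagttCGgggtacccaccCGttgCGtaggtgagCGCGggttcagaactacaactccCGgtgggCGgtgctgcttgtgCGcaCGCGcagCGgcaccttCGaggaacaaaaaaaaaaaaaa
Cox5a, chr9:57520982-57521231, plus strand: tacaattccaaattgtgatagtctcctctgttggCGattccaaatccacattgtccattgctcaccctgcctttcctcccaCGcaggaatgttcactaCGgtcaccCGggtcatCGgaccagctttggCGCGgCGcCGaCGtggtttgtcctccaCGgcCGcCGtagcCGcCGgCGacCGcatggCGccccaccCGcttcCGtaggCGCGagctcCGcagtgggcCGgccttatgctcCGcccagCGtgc
Rpl19, chr11:98026674-98026923, plus strand: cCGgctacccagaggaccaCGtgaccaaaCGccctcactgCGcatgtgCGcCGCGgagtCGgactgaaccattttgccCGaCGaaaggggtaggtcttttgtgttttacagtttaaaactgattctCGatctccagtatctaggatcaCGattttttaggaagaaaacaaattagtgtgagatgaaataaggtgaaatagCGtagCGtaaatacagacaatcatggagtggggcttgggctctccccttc
With H3K4me3 in both knockout lists and no control list:
Tpm3, chr3:90079271-90079520, plus strand: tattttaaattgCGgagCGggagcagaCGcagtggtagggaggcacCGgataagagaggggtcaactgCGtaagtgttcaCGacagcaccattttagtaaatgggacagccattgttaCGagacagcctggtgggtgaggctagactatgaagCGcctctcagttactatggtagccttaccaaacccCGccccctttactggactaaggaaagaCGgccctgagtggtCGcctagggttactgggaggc
Mllt10, chr2:18064335-18064584, plus strand: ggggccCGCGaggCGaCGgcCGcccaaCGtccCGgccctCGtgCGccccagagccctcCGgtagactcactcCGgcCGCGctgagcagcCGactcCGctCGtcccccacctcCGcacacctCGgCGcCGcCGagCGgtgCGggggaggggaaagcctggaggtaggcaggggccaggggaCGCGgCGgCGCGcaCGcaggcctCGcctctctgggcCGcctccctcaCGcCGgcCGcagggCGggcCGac
Slc3a2, chr19:8713898-8714147, minus strand: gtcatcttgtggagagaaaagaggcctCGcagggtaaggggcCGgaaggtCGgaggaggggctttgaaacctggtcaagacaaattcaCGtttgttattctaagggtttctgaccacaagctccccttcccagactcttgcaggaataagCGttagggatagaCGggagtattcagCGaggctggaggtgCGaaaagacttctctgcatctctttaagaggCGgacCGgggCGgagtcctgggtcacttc
With H3K4me3 in no list:
Zmynd8, chr2:165858174-165858423, minus strand: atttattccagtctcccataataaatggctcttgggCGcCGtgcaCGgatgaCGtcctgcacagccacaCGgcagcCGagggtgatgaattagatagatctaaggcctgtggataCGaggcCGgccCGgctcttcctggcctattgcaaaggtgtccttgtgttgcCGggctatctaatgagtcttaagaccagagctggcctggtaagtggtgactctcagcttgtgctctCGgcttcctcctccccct
Zmynd8, chr2:165884839-165885088, minus strand: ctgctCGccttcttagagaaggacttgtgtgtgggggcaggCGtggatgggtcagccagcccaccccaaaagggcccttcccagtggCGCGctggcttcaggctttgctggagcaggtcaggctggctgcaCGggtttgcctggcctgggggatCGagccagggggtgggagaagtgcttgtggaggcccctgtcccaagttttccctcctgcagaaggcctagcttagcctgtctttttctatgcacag
Tsc22d1, chr14:76488186-76488435, plus strand: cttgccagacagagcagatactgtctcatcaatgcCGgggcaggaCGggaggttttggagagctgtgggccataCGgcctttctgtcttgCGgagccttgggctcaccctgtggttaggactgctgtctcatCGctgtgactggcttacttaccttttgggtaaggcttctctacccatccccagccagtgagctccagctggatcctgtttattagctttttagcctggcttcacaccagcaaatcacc

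The 3 promoters with H3K4me3 in all 4 lists held 25, 26 and 14 CpG in the printed bases. Those with H3K4me3 in the knockout lists alone held 11, 36 and 11, and those with none held 11, 6 and 5. Gtf2i encodes the transcription factor TFII-I, Cox5a a subunit of cytochrome c oxidase, and Rpl19 a protein of the large ribosomal subunit. Tpm3 encodes a tropomyosin, Mllt10 a cofactor of the H3K79 methyltransferase DOT1L, and Slc3a2 the heavy chain of amino acid transporters. Zmynd8 encodes a chromatin reader protein and Tsc22d1 a leucine zipper protein. The starts of Gtf2i, Cox5a and Rpl19 lay 2918, 3904 and 4921 bp inside the annotated span, and those of Tpm3, Mllt10 and Slc3a2 lay 6870, 9425 and 9472 bp inside. The starts without H3K4me3 lay deeper, at 40808 and 14143 bp in Zmynd8 and 73475 bp in Tsc22d1. These promoters are internal because a longer transcript of the same gene starts further upstream in the annotation.

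Over all 122 promoter windows on the regions, the median was 25 CpG per window of 300 bases. These windows belong to 96 genes on 89 regions. Windows of the same gene can overlap and are counted each, so they are not all separate promoters. It was 5 over the 6389 windows that lie inside gene bodies and 7 over all 32851 windows in the table. The median was 29 for the 21 windows on regions with H3K4me3 in all 4 lists and 28 for the 39 on regions with it in the knockout lists alone. It was 24 for the 45 on regions with other patterns and 6 for the 17 on regions with none. Windows with a high and a low CpG count occurred in each class that had H3K4me3, as the plot of CpG content shows.

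**Figure D1:**
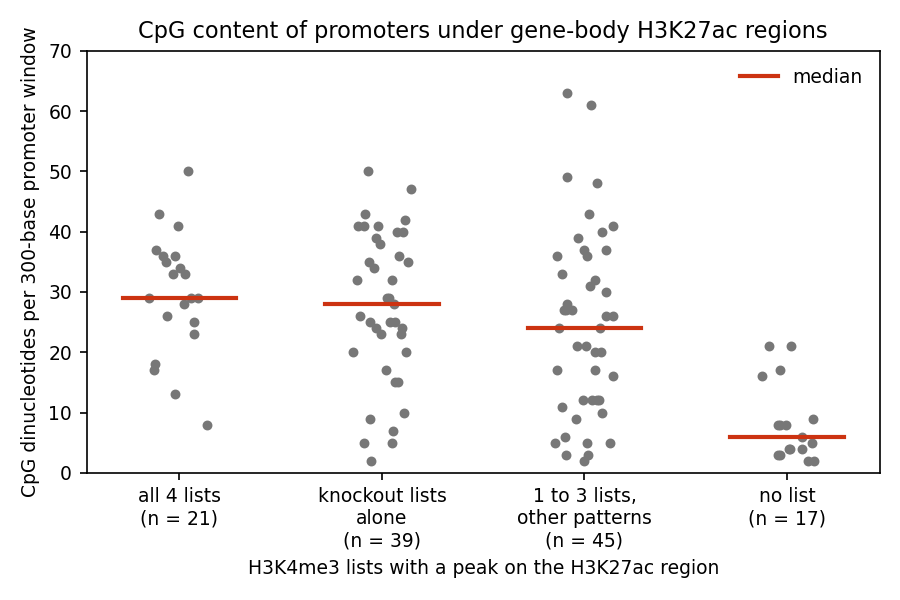
CpG dinucleotides in each of the 122 promoter windows of 300 bases on the H3K27ac regions (vertical axis), by the H3K4me3 lists that call the region (horizontal axis). Each point is 1 window, with sideways spread for legibility, and red lines are medians: 29, 28, 24 and 6 from left to right, with no window above 21 in the class without H3K4me3.

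Short motifs were searched for in the 300-base windows on both strands, by exact match. The GC box core GGGCGG was in 54.1% of the 122 windows, against 27.7% of windows inside gene bodies and 35.7% of all windows. It was in 81.0% of windows on regions with H3K4me3 in all 4 lists, in 59.0% of those with it in the knockout lists alone and in 5.88% (1 of 17) of those with none. The ETS core CCGGAAG was in 13.9%, against 4.90% inside gene bodies and 8.86% of all windows. CCAAT was in 31.1%, against 34.0% and 37.4%. The TATA box TATAAA was in 8.20%, against 12.8% and 13.6%, and the E-box CACGTG in 5.74%, against 5.71% and 7.15%. In the 17 windows on regions without H3K4me3, CCGGAAG and TATAAA were each in 23.5% (4 windows), CCAAT in 11.8% and CACGTG in 5.88%. None of these motifs contains another, and a match is a description of letters, not a bound site. The GC box, the ETS core and the E-box each hold a CpG, so their shares can move with CpG content.

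H3K4me3, like H3K27me3, was not used in the choice of the regions. Over the 552 regions it was called at 38 and 37 in control replicates 1 and 2 and at 94 and 88 in knockout replicates 1 and 2. Both knockout lists were thus above both control lists. The shares were 6.88%, 6.70%, 17.0% and 15.9%, where the 2913 regions called in all 4 H3K27ac lists had 20.0%, 20.9%, 42.9% and 42.6%, higher in every list and also above control in the knockout lists. The H3K4me3 lists differ in length in the same direction, with 2859 and 2431 peaks in control and 8131 and 8055 in knockout cells. The regions took 1.36% and 1.52% of the control peaks and 1.18% and 1.09% of the knockout peaks. With 2 lists against 2 an exact two-sided permutation test cannot give a p below 0.333, so none is given for this or any other comparison of the conditions.

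All 4 H3K4me3 lists called 19 of the 552 regions (3.44%), where 12% of the 2913 regions called in all 4 H3K27ac lists were so marked. The knockout lists alone called 33 (5.98%, background 13%). The control lists alone called 0 (background 0.0343%), 57 had other patterns, and 443 (80.3%) had no H3K4me3 in any list. Gene-end regions had it in all 4 lists at 24.1% and in none at 10.5%. Regions between genes had it in all 4 at 1.42% and in none at 88.6%.

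The annotated promoters separated the 2 kinds of gene-body region. Of the 89 regions on a promoter, H3K4me3 was called at 28.1% and 36.0% in the control lists and at 80.9% and 77.5% in the knockout lists. Of the 441 off promoters it was called at 2.04% and 0.454% in control and at 4.08% and 3.18% in knockout lists. Gene-end regions were at 39.2% and 42.5% in control and 84.6% and 84.1% in knockout lists. Regions between genes, of which 41 lay on a promoter, were at 3.91% and 2.49% against 8.88% and 7.64%. Both control lists called 15 of the 89 regions, and both knockout lists called 67. At the 122 promoter windows themselves, H3K4me3 covered 9.02% and 14.8% in control and 73.0% and 73.0% in knockout lists. Promoter windows inside gene bodies that no H3K27ac list touched, 5482 in number, were covered at 0.274% and 0.347% in control and at 4.63% and 4.56% in knockout lists.

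**Figure D2:**
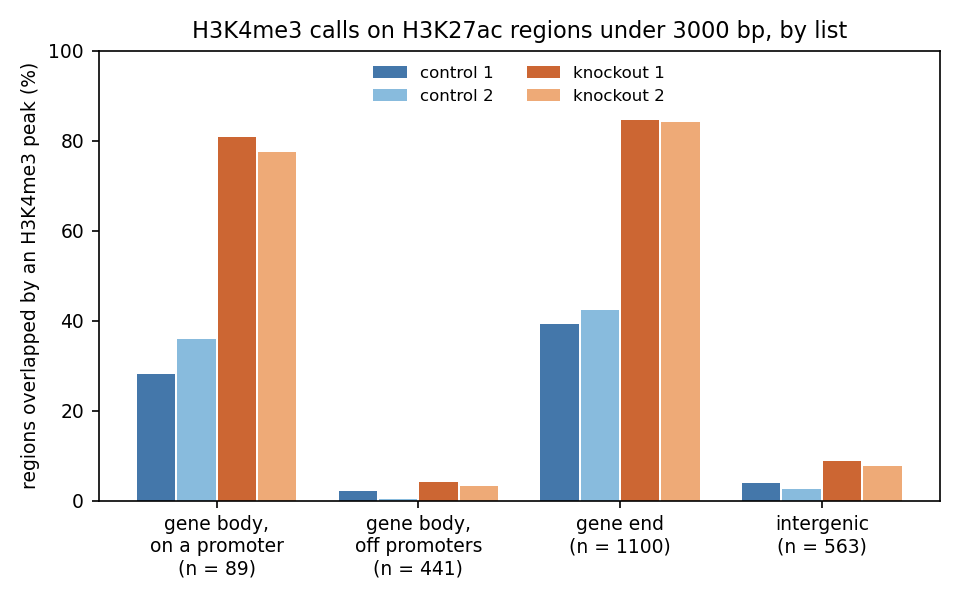
Share of H3K27ac regions under 3000 bp that an H3K4me3 peak overlaps by at least 1 bp (vertical axis, %), for gene-body regions on and off annotated promoters, gene-end regions and regions between genes (horizontal axis). Each bar is 1 H3K4me3 list. Gene-body regions on promoters reach 80.9% in the knockout lists and those off promoters at most 4.08%.

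The order of the conditions stood with lists of equal length, but the counts were smaller. With each H3K4me3 list held to its 2431 widest peaks, the regions were called at 29 and 37 in control and at 53 and 53 in knockout lists. Among the promoter regions the counts were 19 and 32 against 47 and 45. Both knockout lists then called 38 of the 552 regions, not 78, and the knockout lists alone called 10, not 33. The narrowest peaks kept were 501 bp in each control list and 1178 and 1149 bp in the knockout lists. Since width ranks the peaks, this setting keeps the wider knockout peaks. Control replicate 2 holds 2431 peaks and was not cut. The peaks dropped from control replicate 1 were all 501 bp wide, so genome position decided which peaks of that width were kept. Whether list length follows depth, precipitation or chromatin was not tested, since the lists hold no heights or read numbers.

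3 regions show the class with H3K4me3 in all 4 lists. At Gtf2i (chr5:134311917-134316619) the H3K27ac widths were 2602 and 1737 bp in control and 3085 and 2523 bp in knockout replicates, and the H3K4me3 widths were 630 and 695 bp against 2033 and 1606 bp. At Cox5a (chr9:57520966-57524037) H3K27ac spanned 3006, 2620, 2771 and 1526 bp in the same order of lists, and H3K4me3 501, 501, 1438 and 1167 bp. At Rpl19 (chr11:98025829-98028744) H3K27ac spanned 2549, 1838, 2334 and 1582 bp, and H3K4me3 1019, 1030, 1323 and 1465 bp. At each of the 3, the H3K27ac widths of the conditions overlapped while both H3K4me3 widths in the knockout lists were above both in the control lists. Over the 19 regions of the class, median H3K4me3 peak widths were 631 and 856 bp in control and 1416 and 1365 bp in knockout lists. The H3K4me3 lists as a whole differ in the same direction. In them 68.1% and 62.0% of control peaks stood at the minimum width of 501 bp, against 31.0% and 30.3% of knockout peaks. Tmpo, which encodes the nuclear envelope protein thymopoietin, the cyclin gene Ccnl1, Epc1 of the NuA4 acetyltransferase complex, Gramd1a and the helicase gene Dhx16 were the next by H3K27ac width. Cdkn1a, singled out after its values were seen, encodes the cyclin-dependent kinase inhibitor p21. Its region had H3K27ac of 944, 501, 1365 and 1805 bp and H3K4me3 of 1321, 1731, 2329 and 2314 bp, so both marks were wider in both knockout lists.

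The class with H3K4me3 in the knockout lists alone held promoters of regulators as well. At Mllt10 (chr2:18063469-18066395) H3K27ac spanned 2561 and 2305 bp in control and 2485 and 2851 bp in knockout lists, while H3K4me3 was absent from both control lists and 2196 and 1655 bp wide in the knockout lists. At Slc3a2 (chr19:8711381-8714625) H3K27ac spanned 3245, 2244, 2460 and 2141 bp and H3K4me3 0, 0, 2211 and 1077 bp. At Rbpj (chr5:53588440-53592068), which encodes the transcription factor of the Notch pathway, H3K27ac spanned 2201, 501, 3629 and 3091 bp and H3K4me3 0, 0, 1977 and 2457 bp. Control lists thus called H3K27ac without H3K4me3 at each of these regions, and at Rbpj the H3K27ac call was wider in both knockout lists too. At Tpm3 (chr3:90078697-90084041) the H3K27ac widths were 4534 and 501 bp in control and 878 and 5019 bp in knockout lists, so the replicates of each condition were further apart than the conditions. Tasor, which encodes a subunit of the HUSH silencing complex, went the other way for H3K27ac, with 2339 and 2324 bp in control and 1587 and 1584 bp in knockout lists. Usp34, Vapa and Dido1 complete the 8 widest regions of the class. Srf and Hif1a, singled out after their values were seen, encode the serum response factor and a subunit of the hypoxia-inducible factor. The H3K27ac widths at Srf were 501, 501, 1041 and 771 bp and the H3K4me3 widths 0, 0, 1102 and 1043 bp. At Hif1a they were 811, 501, 1036 and 1046 bp for H3K27ac and 0, 0, 1142 and 1276 bp for H3K4me3. Of the 33 regions of the class, 15 (45.5%) had H3K27ac wider in both knockout lists and 3 (9.09%) narrower, against 27.5% and 12.5% of the 2913 regions. Promoter windows were at hand for 32 of the 33, and 29 lay on one. Over all 89 gene-body regions on a promoter the shares were 36.0% and 7.87%.

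H3K27me3 was called on 0 of the 552 regions in each of its 4 lists. Over the 2913 regions called in all 4 H3K27ac lists it was called on 3 (0.103%). The H3K27me3 lists held 6312 and 7203 peaks in control and 11349 and 11446 in knockout cells.

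The H3K27ac widths varied widely between lists. The median called width per region was 1311.5 and 1195 bp in control replicates 1 and 2 and 1392 and 1436.5 bp in knockout replicates 1 and 2. The quartiles ran from 775 to 2145.75 bp in control replicate 1 and from 883 to 2183.5 bp in knockout replicate 2. No peak of the lists is narrower than 501 bp, and 83, 105, 79 and 55 of the regions stood at that minimum in the lists in that order. Of the 552 regions, 381 held a single peak in every list.

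**Figure D3:**
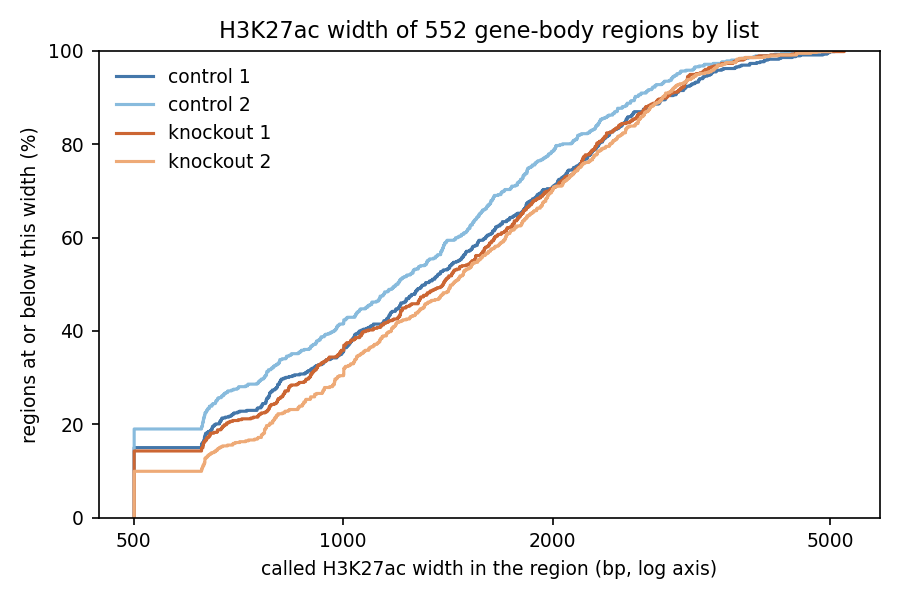
Cumulative share of the 552 regions (vertical axis, %) by called H3K27ac width (horizontal axis, bp, log axis), with 1 line for each list. Control replicate 2 lies to the left, with a median of 1195 bp, and the other 3 lists have medians of 1311.5 to 1436.5 bp; the step at 501 bp is the minimum peak width.

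The name steady holds for the presence of a call, less so for its place. In 149 of the 552 regions (26.99%) no base was called in all 4 lists, against 9.73% of gene-end regions and 27.4% of regions between genes. Such a region is joined by peaks that overlap in a chain. The stretch called in all 4 lists had a median of 441.5 bp, and its median share of the merged region was 18.1%, against 41.0% at gene ends. The overlap of 2 lists as a share of the bases either calls had a median of 0.441 between the control replicates and 0.484 between the knockout replicates. Between a control and a knockout list it was 0.457 to 0.487, so lists of the same condition overlapped about as much as lists of different conditions. Regions on a promoter lacked a common base at 11.2% and those off promoters at 29.7%. Cemip shows such a chain: its region at chr7:84020750-84025051 was called at 1080, 1147, 3068 and 2778 bp and had 0 bp in common to all 4 lists.

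The knockout widths were slightly higher at the median. The median log2 ratio of the mean knockout width to the mean control width was 0.11 (1.076-fold), with quartiles of -0.35 and 0.57, and 54.5% of regions were above 0. Over all regions called in all 4 lists it was 0.14, at gene ends 0.27 and between genes 0.01. The median log2 ratio of replicate 2 to replicate 1 was -0.07 in control and 0.01 in knockout lists. Without knockout replicate 1 or 2 the median log2 ratio was 0.02 and 0.02, and without control replicate 1 it was 0.20.

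In 134 regions (24.3%) both knockout widths were above both control widths, where the share over all regions called in all 4 lists was 27.5%. In 92 (16.7%) both were below, where that share was 12.5%, and in 326 the ranges overlapped. Gene-end regions were wider at 35.3% and narrower at 5.91%, and regions between genes at 19.9% and 16.5%. Regions on a promoter were wider at 36.0% and narrower at 7.87%, and those off promoters at 22.4% and 17.7%. The median log2 ratio was 0.27 on promoters and 0.03 off them. The condition means differed by over 2-fold in 89 of the 552 regions and in 301 of the 2913 regions called in all 4 lists. With ranges apart as well, 53 of the 552 were wider and 25 narrower, and 194 and 80 of the 2913. Replicates of the same condition differed by over 2-fold in 125 of the 552 regions in control and in 118 in knockout lists. Over the 2913 regions these counts were 472 and 381. The replicate counts compare single lists and the condition counts compare means of 2 lists, which vary less. The 2 kinds of count are thus not like measures. With peaks of the minimum width left out, the same rule gave 328 regions, of which 66 were wider and 59 narrower. The share over all regions was not computed for that setting.

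**Figure D4:**
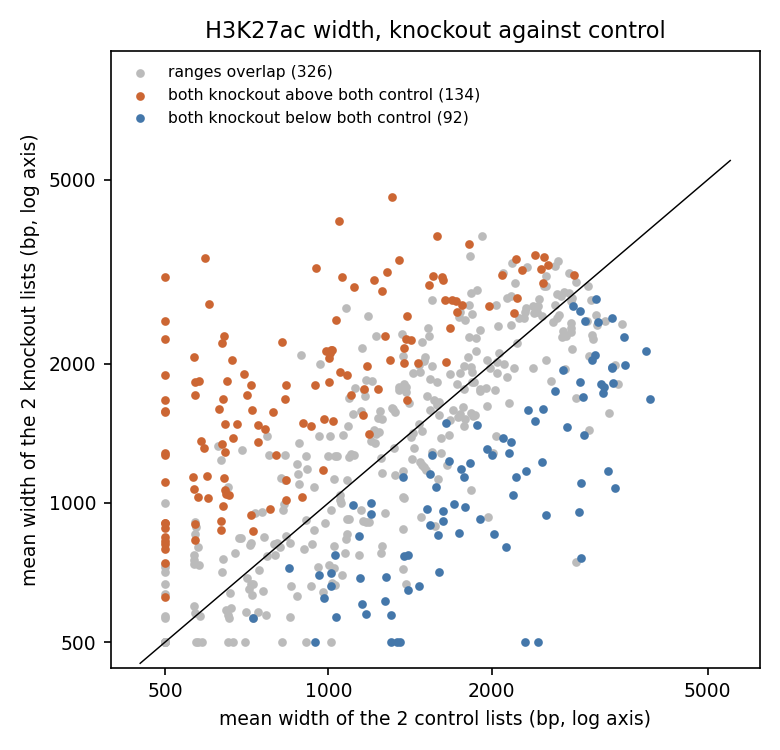
Mean H3K27ac width of each of the 552 regions in the 2 knockout lists (vertical axis, bp, log axis) against the 2 control lists (horizontal axis, bp, log axis), with the line of equality. Orange points are the 134 regions with both knockout widths above both control widths, blue points the 92 with both below, and grey points the 326 with overlapping ranges, which lie on both sides of the line.

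The regions with the largest ratios began at or near the minimum width. At Ppp2r5e (chr12:75517401-75523069), which encodes a regulatory subunit of the phosphatase PP2A, widths were 501 and 683 bp in control and 4466 and 2314 bp in knockout lists, a ratio of 5.73. At Cadm2, a cell adhesion gene, they were 501, 501, 2816 and 2137 bp. Both stood near the minimum in both control lists. Abr, Fndc7, Tpst2, Cdc14a and Rngtt had the same form, with control widths of at most 705 bp. Taf15, which encodes an RNA-binding protein of the FET family, and Trim71 began wider. The Taf15 region had 1267, 827, 4678 and 3448 bp, and the Trim71 region (chr9:114524707-114529641) 1836, 781, 4409 and 4785 bp. Trim71 encodes an RNA-binding repressor known from pluripotent cells. A neighbouring region of that gene had 697, 501, 1086 and 966 bp, so both were wider in both knockout lists.

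Among the regions narrower in the knockout lists, the first was in Anks1 (chr17:27940502-27943755), with 2978 and 1885 bp in control and 501 and 501 bp in knockout lists, 4.85-fold narrower. Shroom3, which encodes an actin-binding regulator of cell shape, followed with 2771, 1836, 501 and 501 bp, 4.60-fold narrower. Sptlc2, which encodes a subunit of the first enzyme of sphingolipid synthesis, had 1680, 4169, 1023 and 501 bp. All 3 stood at the minimum width in at least 1 knockout list. Igf2bp3 (chr6:49096978-49101790), which encodes an RNA-binding protein described as an m6A reader, had 2853 and 3886 bp against 834 and 1324 bp, 3.12-fold narrower. That region also lies inside the span of Malsu1, so its host is ambiguous. Smtnl2, Cdkal1, Ccdc88c, Med27 (of the Mediator complex) and Cdh13 were 2.65-fold to 3.04-fold narrower. Atf1, which encodes a transcription factor that binds cAMP response elements, held 1 region of each kind. Its narrower region had 1013, 1696, 501 and 501 bp and its wider one 1002, 897, 1959 and 4479 bp. None of the 10 regions with the largest and the 10 with the smallest ratio had H3K4me3 in any list or lay on a promoter window.

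The widest regions by the mean of the 4 lists were in Syndig1 (2996.75 bp), Ncoa7 (2989.75 bp), Tkt (2974.5 bp), Txnrd1 (2974 bp) and Dennd2c (2963 bp). Just past the bound of 3000 bp lay regions of Pdgfc (3007.75 bp), Wscd2 (3013.5 bp) and Schip1 (3014.25 bp). Ncoa7, a nuclear receptor coactivator gene, was narrower in both knockout lists, with 2849, 4858, 2252 and 2000 bp. Txnrd1, the gene of cytosolic thioredoxin reductase, had the most even widths of the 5, with 2612, 3052, 3119 and 3113 bp over a promoter of its own, and H3K4me3 of 0, 501, 2017 and 1635 bp. At the other end 6 regions stood at 501 bp in all 4 lists, among them those of Pigl, Mbnl2, Dgkg, Poglut1 and Tacc2.

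The rule keeps regions away from gene ends and so favours long genes. Their distance to the nearer end of the host gene had a median of 16052 bp, from 1030 to 760349 bp, with 19.6% within 5000 bp and 36.96% within 10000 bp of an end. The host spans had a median of 83340 bp per region. Counted once per gene, the hosts had a median span of 81909.5 bp, against 17169 bp over all protein-coding genes. Where the strand of the host was known, for 448 regions, 280 (62.5%) were nearer to the start of the gene than to its end. With each host cut into 3 equal parts from its start, 199, 155 and 94 regions lay in the first, middle and last part. A broader H3K27ac region called in all 4 lists lay within 10000 bp of 43 regions (7.79%), against 3.36% of gene-end regions and 8.70% of regions between genes. Another of the 552 regions lay that near for 57 (10.3%).

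The 552 regions fell in 514 genes, which are 2.35% of 21887 protein-coding genes. A single region was found in 461 of them, 2 in 45, 3 in 7 and 4 in 1. On chromosome 18 a single region lay in the overlapping spans of 24 genes, and these count as hosts. On chromosome 6 a region lay in the spans of both Igf2bp3 and Malsu1. The host with 4 was Esrrb, and those with 3 were Zmynd8, Dennd2c, Ak7, Cemip, Epha4, Msi2 and Magi1. Mybl2, which encodes a cell-cycle transcription factor, and Ddc, which encodes aromatic amino acid decarboxylase, had 2 wide regions each. At Mybl2 one had 1882, 3554, 2909 and 2797 bp and the other 3334, 501, 5244 and 2319 bp, both with overlapping ranges. In Cemip, a gene of hyaluronan turnover, 2 of 3 regions were wider in both knockout lists, with 501, 801, 2391 and 1270 bp and the widths given above. In Msi2, which encodes the RNA-binding protein Musashi-2, 1 region was narrower (805, 1248, 754 and 792 bp), 1 wider (677, 501, 1056 and 1573 bp) and 1 overlapped. The 3 Zmynd8 regions had no H3K4me3 in any list although 2 of them lay on annotated promoters of the gene. Regions of the same host thus did not share a direction in Msi2 or Atf1.

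The ends of the host genes carried H3K27ac in 32.5% and 27.2% of cases in the control lists and in 43.0% and 38.5% in the knockout lists. Over all protein-coding genes the shares were 17.4% and 14.45% against 22.1% and 22.0%. In all 4 lists, 66 of the 514 hosts (12.8%) had it at an end, where 6.91% of all genes did. No list called H3K27ac at either end of 195 hosts (37.9%), against 65.4% of all genes. H3K4me3 stood at the ends of 16.1% and 12.3% of hosts in control and of 44.4% and 45.9% in knockout lists, against 8.01% and 8.08% and 30.8% and 30.9% of all genes. In the knockout lists alone it was called at 95 hosts (18.5%, background 13.5%), and in the control lists alone at 1 (background 0.0274%). H3K27me3 stood at the ends of 4.47% and 4.67% of hosts in control and of 8.95% and 8.75% in knockout lists. Over all genes it stood at 7.31% and 8.25% against 12.7% and 13.05%. Longer genes and shared windows were not matched in this comparison.

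Esrrb encodes an orphan nuclear receptor of the naive pluripotency network. Its span (chr12:86361117-86521628, 160512 bp) held 4 of the regions and 2 broader ones, all in the part from 111097 bp to the end of the gene. The first, at chr12:86472214-86474865, had 2055 and 1508 bp in control and 1878 and 1153 bp in knockout lists. The second had 652, 1956, 501 and 501 bp, the third 685, 1317, 1432 and 2226 bp, and the fourth 501, 631, 501 and 1039 bp. The second was thus narrower and the third wider in both knockout lists, and the ranges of the other 2 overlapped. Of the 4 regions, only that at chr12:86472214-86474865 had a base called in all 4 lists. In the narrower region the peaks of the 2 knockout lists did not meet. In the wider region those of the 2 control lists did not. The widths of these regions thus compare peaks at partly different places. The 2 broader regions were more even, with 3833, 3222, 3499 and 3144 bp and with 7428, 6377, 7226 and 6978 bp. H3K4me3 was called within the gene in the knockout lists alone, from 108715 to 111253 bp after its start, where a peak of knockout replicate 1 touched the first region. H3K27me3 peaks of all 4 lists lay before 64220 bp, and at the start of the gene itself only the knockout lists had one, of 767 and 501 bp.

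**Figure D5:**
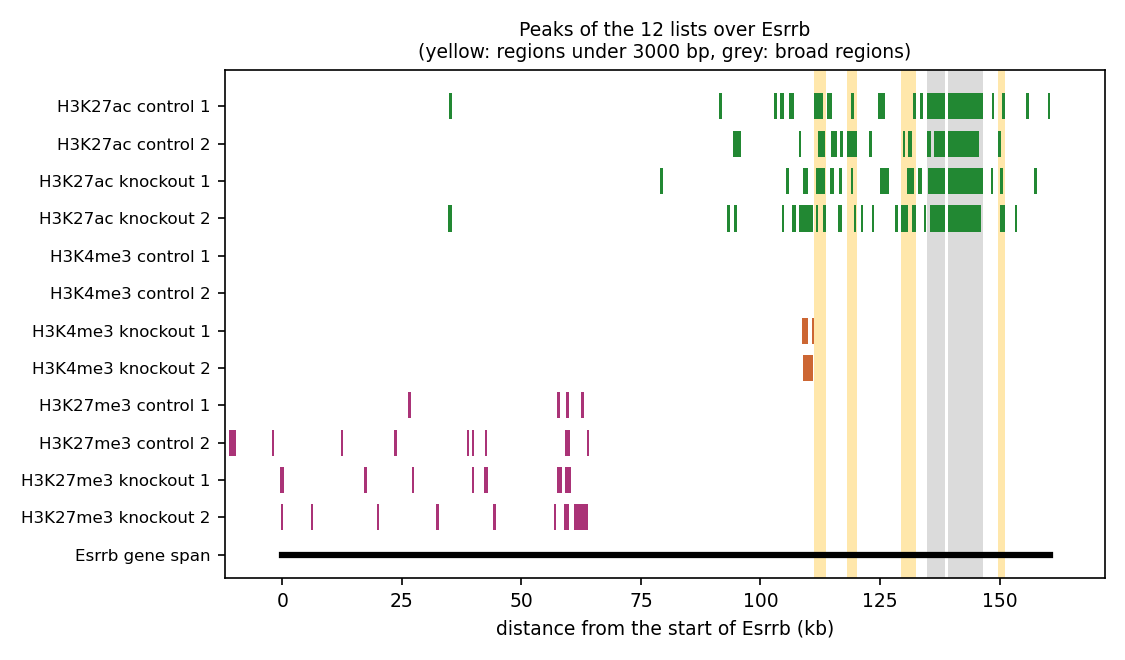
Peaks of the 12 lists over Esrrb, by distance from the start of the gene (horizontal axis, kb), with 1 row for each list and the gene span as a black bar. Yellow bands are the 4 regions under 3000 bp and grey bands the 2 broader ones; H3K27ac gathers in the last part of the gene, and H3K27me3 peaks inside the gene lie before 64220 bp.

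The gene lists held 0 to 2 hosts each, where 2.35% of all protein-coding genes were hosts. Of 25 naive and core pluripotency factors, 2 were hosts, Esrrb and Tbx3 (8%). The Tbx3 region (chr5:119679902-119681800) had 1899, 1056, 1209 and 1247 bp. Of 22 genes of FGF and MAPK signalling, 2 were hosts, among them Map2k1 (501, 777, 642 and 873 bp), which encodes the kinase MEK1. PD0325901, present in all cells, inhibits MEK1. The ranges of the conditions overlapped at Tbx3 and Map2k1. Among chromatin genes, hosts were Crebbp (the acetyltransferase CBP), 1 of 24 acetylation genes, Kmt2d (an H3K4 methyltransferase), 1 of 16 H3K4 enzymes, and Kdm6b (an H3K27 demethylase), 1 of 25 Polycomb genes. The Kdm6b region had 1432, 501, 1418 and 2576 bp. Of 13 DNA methylation genes 2 were hosts, among them Tet1, which encodes a 5-methylcytosine dioxygenase (635, 501, 627 and 1191 bp, with overlapping ranges). Igf2bp3 was the host among 20 m6A genes and Ski, a repressor of SMAD signalling, among 26 genes of Nodal, TGF-beta and BMP signalling (1480, 2781, 2660 and 2880 bp). Of the formative and primed factors, LIF and JAK-STAT, Wnt, lineage and housekeeping lists 0 genes were hosts. Mettl14 and Mettl3 held 0 of the regions.

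Marker lists were counted in the same way to set the regions against the labelled cell type. Of 8 mESC markers 2 were hosts, Esrrb and Tbx3, and of 8 fibroblast, 8 trophectoderm and 8 primitive endoderm markers 0 were. Since 2.35% of all protein-coding genes were hosts, 0 of 8 tells little. A broader gene-body region lay in 2 mESC markers, Esrrb and Tfcp2l1, and in 1 trophectoderm marker, Tead4. H3K27ac stood at a gene end in all 4 lists for 5 of the mESC markers and for 0 of each of the other 3 lists, where 6.91% of all genes had it.

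Annotated small RNAs lay under 3 of the regions. Snora2b, a small nucleolar RNA in Kansl2, lay in a region of 626, 2475, 3409 and 2088 bp. Mir1893 lay in the Epc1 region (1997, 1559, 1815 and 1718 bp) and Mir1192 in a region of Klf9 (1271, 3040, 1544 and 1740 bp). A long noncoding RNA gene overlapped 50 of the regions.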

How the data were processed

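Deposited peak lists of 3 histone marks from mESCs were analysed, with 2 control (Mettl14 Control) and 2 knockout (Mettl14 CKO) libraries for each mark, grouped by title. Chromatin was fixed with formaldehyde and spike-in material was added before precipitation, per the labels' protocols. For H3K27ac, the antibody field of the labels gives the H3K4me3 antibody, and the title was followed. The submitters' processing notes list build mm10 and the tools Bowtie2 2.4.1, Trimmomatic 0.38, HOMER, CASAVA and SAMtools. Which program called peaks, and how inputs and spike-in entered, is not given in the sources used here. The deposited score column is 1 throughout and was not used. The deposited positions give each peak's width, the only measurement, with no heights or reads, so the depth is unknown.

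Peaks overlapping by at least 1 bp were merged, and a region's width in a list is its called bases there. Gene spans (without strand, mitochondrial genes left out) and promoter windows came from RefSeq, GRCm38.p6. Promoter windows on chromosome 18 were not used here, which leaves out 22 of the 552 regions from the promoter shares. The regions and gene lists were chosen with earlier results of these data known. Named were Mettl14 and Mettl3, the hosts of most regions (up to 10), the 10 largest and 10 smallest width ratios with ranges apart, the 5 widest and 5 narrowest regions, the 3 just past the bound, up to 8 of each H3K4me3 class, and up to 6 hosts per gene list. Some results under this rule are not reported here. Same-numbered control and knockout lists were checked for shared deviations in H3K27ac width, and none was seen (correlation -0.010). Merging and counting were tested on simulated data. Alternatives were other merging distances, windows, bounds, gene types, overlaps, list lengths and lists left out. Python 3.11.15, NumPy 2.4.6 and matplotlib 3.10.9 were used.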

Additional observations from a re-analysis of the deposited data

How the results depend on the processing

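Of 201 alternative values for 12 results under 21 alternatives, 165 stayed within 1.5 times (or 1 SD of 0.0708 for the median log2 ratio) and 36 moved. With peaks of the minimum width left out there were 328 regions in 305 genes, 66 wider and 59 narrower. Leaving out 1 H3K27ac list at a time gave 777 to 849 regions, most without control replicate 2, since fewer calls are required. It gave a median log2 ratio of 0.0177 to 0.1963, 267 to 309 wider and 198 to 281 narrower regions, with fewer widths to compare and other regions kept. On a promoter were then 105 to 134 regions. With H3K4me3 lists of equal length, 38 regions had the mark in both knockout lists, 34 of them on a promoter, and 10 in the knockout lists alone. Leaving out any 1 list of H3K27ac or H3K4me3 gave 39 to 53 with it in the knockout lists alone and 19 to 38 with it in every control list used, of which 15 to 32 on a promoter. With a gene-end window of 2500 bp, 9 promoter regions had it in both control lists. H3K27me3 touched 1 region with peaks within 500 bp merged and 1 to 3 with an H3K27ac list left out, against 0. Of the 381 regions with a single peak in every list, 60 were narrower, where 92 of all 552 were, so that count comes from a smaller set. The causes of the moves were not tested. The single-peak setting, H3K4me3 lists alone held to equal length, and regions with a base common to all 4 lists were chosen after seeing the data. Taking same-numbered lists as pairs (a replicate block) gave 168 wider and 132 narrower regions. Such pairs ask less than both knockout widths above, or below, both control widths, so they cannot give fewer regions. For the wider and narrower counts under the alternatives, the share over all regions called in the lists used was not computed. The correlation of the replicate differences over the 552 regions was -0.010. A value from called widths alone cannot tell whether same-numbered lists share a culture or a preparation. Depth and peak heights were not used here, so a missing call and a shallow library cannot be told apart.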

Other observations

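2 further regions, picked after their values were seen, lie in genes known from mESC biology. Arid1a encodes a subunit of the BAF chromatin remodelling complex. Its region (chr4:133751712-133754582) lies on a promoter of the gene, with H3K27ac of 1299 and 2135 bp in control and 2705 and 2755 bp in knockout lists and H3K4me3 of 838, 0, 2392 and 2690 bp. Both marks were wider in both knockout lists there. Cdh1 encodes E-cadherin, which holds mESC colonies together. Its region (chr8:106639217-106642734) lies off promoters, with H3K27ac of 3518 and 501 bp in control and 783 and 1777 bp in knockout lists. The ranges overlap, and no base was called in all 4 lists. The gap between the control replicates at Cdh1 was larger than any difference between a control and a knockout list of the same number.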
